A study of Mus musculus with 12 samples.

Results

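The Ikaros family comprises 5 zinc finger transcription factors, encoded in the mouse by Ikzf1 (Ikaros), Ikzf2 (Helios), Ikzf3 (Aiolos), Ikzf4 (Eos) and Ikzf5 (Pegasus). The members were taken by gene symbol after the gene identifiers of the count tables had been matched to the GENCODE M21 annotation, and all 5 were found among 55401 identifiers. All 5 also passed the filter on low counts, which left 16426 genes for testing. Expression was measured by bulk RNA-seq in 12 libraries of mouse OT-I T cells, 3 in each of 4 groups. OT-I cells are CD8 T cells with a transgenic receptor for an ovalbumin peptide, and every group had this genotype. The day 14 and day 4 groups, which the labels call exhausted, were CD44+ OT-I cells sorted from B78ChOVA melanomas of C57Bl6/J mice, 14 or 4 days after the cells had been transferred. B78ChOVA is a mouse melanoma line that carries ovalbumin, the antigen of the OT-I receptor. Effector cells were OT-I cells stimulated with antigen in vitro for 5 days. Naive cells came from tumour-free OT-I mice, whose lymph nodes were the source, and carry a time label of day 0. No source used here gives the age of the mice or the number of animals behind a library, and no treatment is labelled in any group. Nothing in the labels states that the 3 libraries of a group came from separate animals or cultures, so p-values measure only the spread between these libraries, which may be technical.

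Ikaros family proteins bind DNA through zinc fingers near the amino terminus and pair with themselves and with each other through a separate pair of fingers at the carboxyl terminus. They work largely by bringing chromatin complexes, among them the nucleosome remodelling and deacetylase complex NuRD, to lymphocyte genes. Ikaros is required for lymphocyte development, Helios and Eos are best known from regulatory T cells, and Aiolos is best known from B cells. Pegasus is the most distant relative, and its DNA-binding fingers differ from those of the other members.

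The family is defined by its fingers, so the coding sequences of single fingers show how the members relate and why reads can be assigned to one of them. The second finger of each member, one of those that contact DNA, is given 5′ to 3′ from the longest coding transcript, with the codons of the paired cysteines and histidines that hold the zinc ion in capitals.
Ikzf1: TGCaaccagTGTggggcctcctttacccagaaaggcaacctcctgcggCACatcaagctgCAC
Ikzf2: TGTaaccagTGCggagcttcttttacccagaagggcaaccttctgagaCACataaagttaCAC
Ikzf3: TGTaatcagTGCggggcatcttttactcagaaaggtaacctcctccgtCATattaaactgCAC
Ikzf4: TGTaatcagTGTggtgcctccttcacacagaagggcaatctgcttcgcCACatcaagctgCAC
Ikzf5: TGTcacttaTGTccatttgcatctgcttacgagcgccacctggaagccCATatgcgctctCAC
On GRCm38 these stretches lie in coding exons at chr11:11754024-11754086 (Ikzf1, plus strand), chr1:69570581-69570643 (Ikzf2, minus strand), chr11:98488940-98489002 (Ikzf3, minus strand), chr10:128640229-128640291 (Ikzf4, minus strand) and chr7:131392501-131392563 (Ikzf5, minus strand). The finger encodes 21 residues, and all 21 were identical between Ikzf1 and each of Ikzf2, Ikzf3 and Ikzf4, although the bases were not: Ikzf1 and Ikzf2 shared 51 of 63 bases, Ikzf1 and Ikzf3 shared 51, and Ikzf1 and Ikzf4 shared 53. The second finger of Ikzf5 shared 5 of 21 residues and 26 of 63 bases with that of Ikzf1, and 9 of 21 residues with the third finger of Ikzf1. A finger of the carboxyl-terminal pair, through which the proteins dimerise, shows a closer match of Ikzf5 to Ikzf1, with 14 of 21 residues shared, and is given for Ikzf1, Ikzf2 and Ikzf5 with the same codons in capitals.
Ikzf1: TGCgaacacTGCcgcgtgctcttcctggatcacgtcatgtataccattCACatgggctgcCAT
Ikzf2: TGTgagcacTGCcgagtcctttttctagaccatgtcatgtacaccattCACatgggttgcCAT
Ikzf5: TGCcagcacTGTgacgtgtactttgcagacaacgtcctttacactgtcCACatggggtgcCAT
These stretches lie at chr11:11769411-11769473 (Ikzf1), chr1:69538870-69538932 (Ikzf2) and chr7:131391739-131391801 (Ikzf5), on the strands given above. Over whole coding sequences, the members Ikzf1 to Ikzf4 shared 51.0% to 57.9% of aligned residues pairwise, and Ikzf5 shared 33.1% to 34.4% with them. The longest run of bases that any pair of members had in common was 26 in coding sequence, between Ikzf1 and Ikzf3, and 32 over all annotated transcripts, between Ikzf2 and Ikzf4.

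Libraries held 11937053 to 17094006 counts in genes. Pearson correlations of log2 CPM across genes were 0.970 to 0.981 between libraries of a group and 0.777 to 0.965 between groups, with genes that are not independent replicates. The T cell label fitted the markers: all 8 T cell markers were detected, with summed levels of 3049 to 6091 CPM (counts per 1000000 counts of the library total, which was scaled by the TMM method of edgeR). Cd8a averaged between 1029 and 1521 CPM in the groups and Cd4 between 0.388 and 3.60 CPM. Melanoma markers stood apart in the tumour groups: their summed level was 414 to 1608 CPM at day 14 and 666 to 1003 CPM at day 4, against 36.8 to 42.4 CPM in effector libraries and 26.2 to 32.7 CPM in naive libraries. All 7 of them were detected at both tumour times, where Dct, an enzyme of melanin synthesis, was the most abundant, while Tyr, Tyrp1 and Sox10 were at 0 in effector libraries. In effector and naive libraries nearly all of the melanoma sum was Pmel, with means of 37.5 and 27.9 CPM. Macrophage and monocyte markers summed to 28.9 to 51.0 CPM at day 14, 24.1 to 67.7 CPM at day 4, 1.86 to 6.37 CPM in effector libraries and 10.8 to 20.0 CPM in naive libraries, with C1qa, C1qb and C1qc at 0 in effector libraries. Dendritic cell markers summed to 45.3 to 59.3 CPM at day 14, most of it H2-Aa, against 21.3 to 31.5 CPM at day 4, 5.46 to 15 CPM in effector libraries and 2.6 to 9.75 CPM in naive libraries. Endothelial markers, nearly all of it Pecam1, summed to 41.7 to 56.5 CPM at day 14, 62.0 to 80.8 CPM at day 4, 177 to 186 CPM in effector libraries and 178 to 198 CPM in naive libraries. Fibroblast, erythroid, neutrophil and NK cell markers summed to at most 9.55, 20.1, 0.558 and 0.717 CPM in any library. The part of RNA from other cells in the values below was not tested.

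Ikzf1 was the most abundant member per exonic length in every group and was highest in naive cells. By longest transcript, Ikzf3 was above Ikzf1 in day 14 replicates 1 and 2 (118 against 115 and 132 against 123 CPM per kilobase). Undivided by length, Ikzf2 was above Ikzf1 in day 4 replicates 1 and 2 (719 against 715 and 802 against 770 CPM). Ikzf1 (ENSMUSG00000018654.17) lies at chr11:11685003-11772926 on the plus strand of GRCm38. Its level was 592, 637 and 829 CPM in the day 14 libraries, 715, 770 and 772 CPM in the day 4 libraries, 722, 710 and 755 CPM in the effector libraries, and 1074, 1117 and 1126 CPM in the naive libraries. Every library of the other 3 groups lay below every naive library, while the day 14, day 4 and effector groups overlapped. Ikzf1 fell in effector cells relative to naive cells (log2 fold change -0.60, SE 0.10, edgeR adjusted p = 0.000402), at day 4 (-0.56, SE 0.10, edgeR adjusted p = 0.000166) and at day 14 (-0.69, SE 0.10, edgeR adjusted p = 2.04e-05). The 3 antigen-experienced groups did not separate from one another: the log2 difference was -0.09 between day 14 and effector cells (95% interval -0.32 to 0.15), -0.13 between day 14 and day 4 (-0.37 to 0.10) and 0.05 between day 4 and effector cells (-0.19 to 0.28). One library carried much of the spread at day 14. Without day 14 replicate 3, the library with 829 CPM, Ikzf1 was lower at day 14 than in effector cells (-0.25, edgeR adjusted p = 0.0200) and than at day 4 (-0.31, edgeR adjusted p = 0.0284), and without day 14 replicate 1 the difference from effector cells was 0.05. Those 3 day 14 libraries also differed in melanoma markers, which summed to 1608, 671 and 414 CPM in replicates 1, 2 and 3. T cell markers summed to 4205, 4375 and 4308 CPM in the same libraries. The part of melanoma RNA in the spread of Ikzf1 was not tested.

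**Figure D1:**
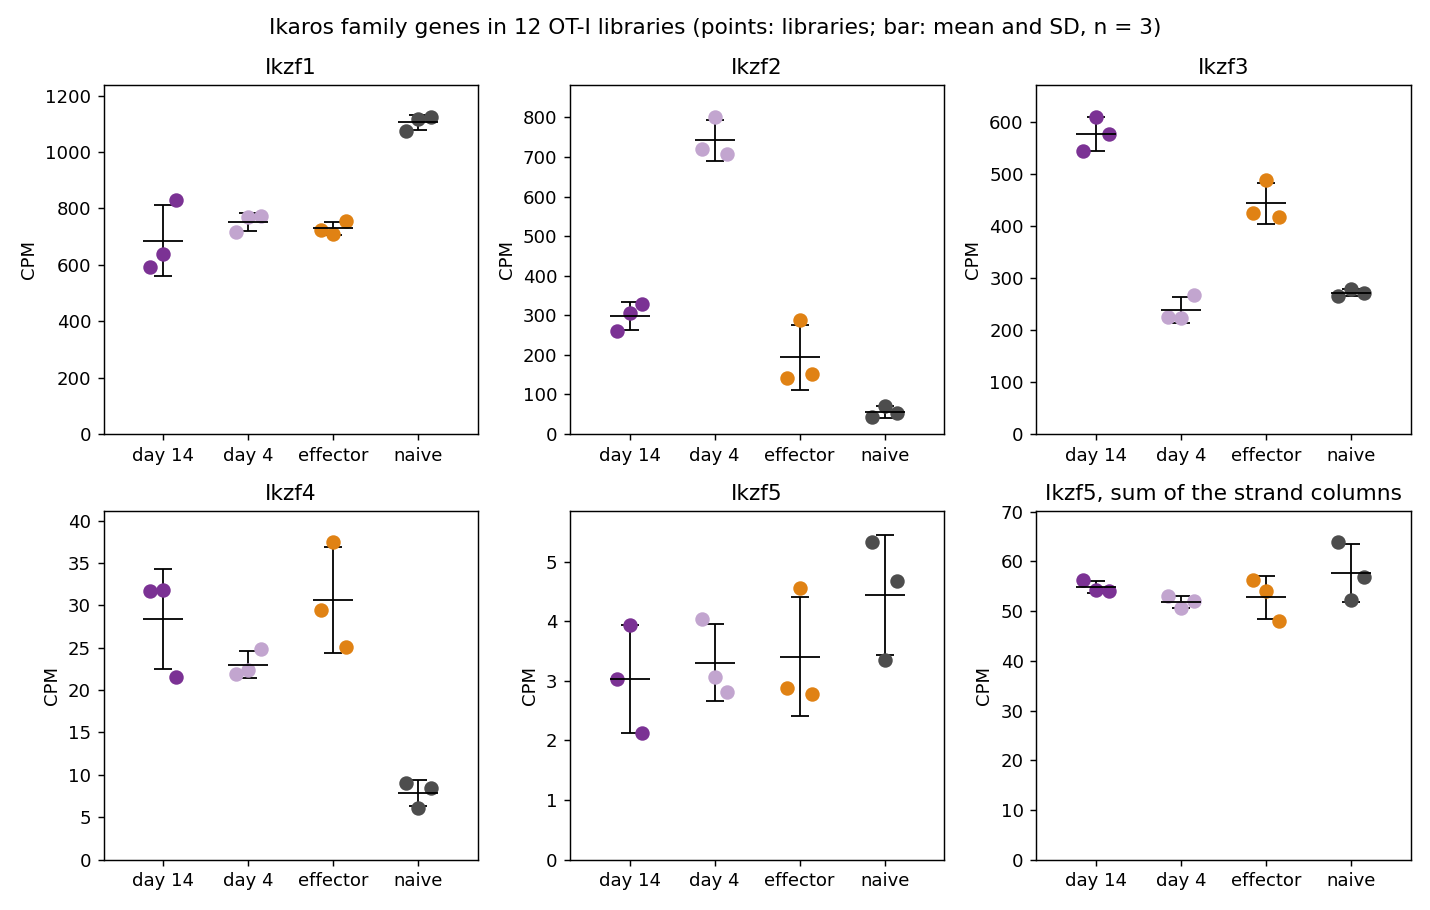
Level of each Ikaros family gene in CPM (y axis) in the 12 libraries by group (x axis), with points for libraries and bars for mean and SD (n = 3); the last panel gives Ikzf5 from the summed strand columns. Ikzf2 is highest at day 4 (707 to 802 CPM), Ikzf3 at day 14 (545 to 610 CPM) and Ikzf1 in naive libraries (1074 to 1126 CPM).

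Ikzf2, which encodes Helios, spanned the widest range of the family and was highest at day 4. The gene (ENSMUSG00000025997.13) lies at chr1:69531214-69687245 on the minus strand. It had 259, 305 and 330 CPM in the day 14 libraries, 719, 802 and 707 CPM in the day 4 libraries, 142, 289 and 151 CPM in the effector libraries, and 42.2, 70.6 and 53.7 CPM in the naive libraries. The naive libraries were below all others and the day 4 libraries above all others, and effector replicate 2 alone reached into the range of the day 14 libraries. In bulk RNA a change in the share of cells that express a gene and a change in the RNA per cell cannot be told apart. Relative to naive cells, Ikzf2 rose 13.4-fold at day 4 (log2 fold change 3.74, SE 0.31, edgeR adjusted p = 3.39e-06), 5.37-fold at day 14 (2.43, SE 0.29, edgeR adjusted p = 5.55e-05) and 3.49-fold in effector cells (1.80, SE 0.29, edgeR adjusted p = 0.00159). Day 4 was also above effector cells (1.94, SE 0.28, edgeR adjusted p = 0.000210). At day 14 it fell by 1.32 on the log2 scale relative to day 4 (SE 0.28, edgeR adjusted p = 0.0132), with all 3 day 14 libraries below all 3 day 4 libraries. That call was lost without day 14 replicate 1, where the log2 fold change was -1.24 (edgeR adjusted p = 0.0575). Day 14 and effector cells differed by 0.62 (SE 0.27, 95% interval -0.01 to 1.25, edgeR adjusted p = 0.0753), which did not pass the threshold. Without effector replicate 2 this difference was 1.03 and passed it (edgeR adjusted p = 0.000133), and with DESeq2 it was 0.67 and passed it (adjusted p = 0.0467). The order of mean levels was day 4, day 14, effector and naive cells. Of the neighbours in it, only day 14 and effector cells were not separated in the edgeR fit of all libraries by group alone. With a replicate block in that fit they were (0.68, edgeR adjusted p = 0.00644), although replicate numbers did not pair the libraries.

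Helios is also made by regulatory T cells, so their markers were read beside Ikzf2. Summed over 4 genes, the regulatory and CD4 T cell markers had 13.2 to 16.8 CPM at day 14, 58.7 to 66.7 CPM at day 4, 8.20 to 9.63 CPM in effector libraries and 8.76 to 16.0 CPM in naive libraries. Their sum was highest at day 4, as Ikzf2 was, but of the 4 genes only Lrrc32 had its highest mean there. Lrrc32, a surface protein that binds latent TGF-beta, made up most of that sum at day 4, with a mean of 57.4 CPM. Foxp3, the defining factor of regulatory T cells, averaged 3.71 CPM at day 14, 2.01 CPM at day 4, 5.19 CPM in effector libraries and 1.95 CPM in naive libraries, and Cd4 averaged 3.60, 2.69, 0.520 and 0.388 CPM in the same order. Cd40lg, the other gene of the sum, averaged 1.29, 0.930, 2.87 and 10.2 CPM in that order. The part of regulatory T cells in the Ikzf2 values was not tested.

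Ikzf3, which encodes Aiolos, had another order, with its highest levels at day 14 and its lowest at day 4. The gene (ENSMUSG00000018168.8) lies at chr11:98464902-98546031 on the minus strand. Its level was 545, 610 and 577 CPM in the day 14 libraries, 225, 223 and 268 CPM in the day 4 libraries, 425, 489 and 416 CPM in the effector libraries, and 266, 279 and 271 CPM in the naive libraries. Day 14 libraries lay above all others, effector libraries came next, and day 4 and naive libraries overlapped. Between the tumour times Ikzf3 rose 2.42-fold at day 14 relative to day 4 (log2 fold change 1.27, SE 0.09, edgeR adjusted p = 4.57e-07). Day 14 was also above effector cells (0.38, SE 0.09, edgeR adjusted p = 0.00168) and above naive cells (1.09, SE 0.09, edgeR adjusted p = 3.72e-08). At day 4 it was below effector cells (-0.89, SE 0.09, edgeR adjusted p = 3.37e-07), and effector cells were above naive cells (0.71, SE 0.09, edgeR adjusted p = 3.65e-05). Day 4 and naive cells differed by -0.19 (95% interval -0.40 to 0.02, edgeR adjusted p = 0.0841) and without day 4 replicate 3 by -0.26, which passed the threshold (edgeR adjusted p = 0.0227). Aiolos is also a B cell factor, and 6 markers of B and plasma cells summed to 1.53 to 4.62 CPM at day 14, 3.88 to 6.73 CPM at day 4, 8.63 to 14.1 CPM in effector libraries and 18.6 to 22.4 CPM in naive libraries. Their part in the Ikzf3 values was not tested.

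Ikzf4, which encodes Eos, was low in naive cells and higher in all 3 antigen-experienced groups. The gene (ENSMUSG00000002578.18) lies at chr10:128630843-128645991 on the minus strand. It had 31.7, 31.8 and 21.6 CPM in the day 14 libraries, 21.9, 22.3 and 24.8 CPM in the day 4 libraries, 29.5, 37.4 and 25.1 CPM in the effector libraries, and 9.02, 6.13 and 8.50 CPM in the naive libraries. No naive library reached the range of the other groups. Relative to naive cells, Ikzf4 rose 3.88-fold in effector cells (log2 fold change 1.96, SE 0.20, edgeR adjusted p = 4.10e-06), 2.91-fold at day 4 (1.54, SE 0.20, edgeR adjusted p = 5.53e-06) and 3.59-fold at day 14 (1.84, SE 0.20, edgeR adjusted p = 7.89e-07). The other groups were not separated: day 14 differed from day 4 by 0.30 (95% interval -0.13 to 0.74) and from effector cells by -0.11 (-0.55 to 0.32). Day 4 differed from effector cells by -0.41 (-0.85 to 0.02, edgeR adjusted p = 0.0687), although no day 4 library reached the lowest effector library. Without effector replicate 3 this difference was -0.49 and passed the threshold (edgeR adjusted p = 0.0490).

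Ikzf5, which encodes Pegasus, was the only member with no call in any comparison, and its counts rested on a small part of the gene. The gene (ENSMUSG00000040167.16) lies at chr7:131388652-131410521 on the minus strand and overlaps Pstk (chr7:131371141-131394482), a gene on the plus strand that encodes phosphoseryl-tRNA kinase. Pstk exons share 4652 of the 5721 exonic bases of Ikzf5, and only 886 bases, or 15.5%, lie outside the exons of other genes. In the other 4 members 98.8% to 100% of exonic bases were free of such overlap. Reads in shared bases were left out of the unstranded counts, and Ikzf5 had only 35 to 72 of them per library. In CPM, these were 3.04, 3.94 and 2.12 at day 14, 4.03, 3.06 and 2.81 at day 4, 2.88, 4.56 and 2.78 in effector libraries, and 5.32, 3.35 and 4.67 in naive libraries. The 4 groups overlapped. Every log2 fold change had a 95% interval that included 0, from -0.55 at day 14 relative to naive cells (-1.35 to 0.24) to -0.04 at day 4 relative to effector cells (-0.85 to 0.76). The tables also give a column for each strand, whose sum was 665 to 990 counts for Ikzf5. These libraries carry no strand information, so that sum also holds reads of Pstk. On the summed counts Ikzf5 had 56.2, 54.2 and 54.1 CPM at day 14, 53.0, 50.5 and 52.0 CPM at day 4, 56.3, 54.1 and 48.0 CPM in the effector libraries, and 63.8, 52.3 and 56.9 CPM in naive libraries, and no comparison passed the threshold there either. Pstk itself, in the unstranded counts, averaged 7.92 CPM at day 14, 11.1 CPM at day 4, 21.5 CPM in effector libraries and 16.7 CPM in naive libraries.

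Counted by comparison, 3 members rose and 1 fell in effector relative to naive cells, where 14.6% of all tested genes were higher and 10.4% lower. That split depended on the scaling: 2395 genes were higher and 1703 lower with TMM, against 1544 higher and 2508 lower with library totals alone, which moved the median log2 fold change of all genes to -0.10, against 0.01 with TMM. The 4 called members kept their directions and calls under either scaling. At day 4 relative to naive cells 2 members rose and 1 fell, with 33.4% of all genes higher and 28.8% lower. At day 14 relative to naive cells 3 rose and 1 fell, with 33.6% higher and 28.5% lower. At day 4 relative to effector cells 1 rose and 1 fell, with 32.7% higher and 29.2% lower. At day 14 relative to effector cells 1 rose and 0 fell by edgeR, with 32.6% higher and 28.4% lower, and 0 members were lower there at an unadjusted p under 0.05 or by DESeq2. At day 14 relative to day 4, the comparison with the fewest calls, 1 member rose and 1 fell, with 7.17% higher and 4.91% lower. In the test among all 4 groups, 4 of the 5 members were called by edgeR, against 74.8% of all tested genes. With 5 members these counts do not set the family apart from other genes.

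**Figure D2:**
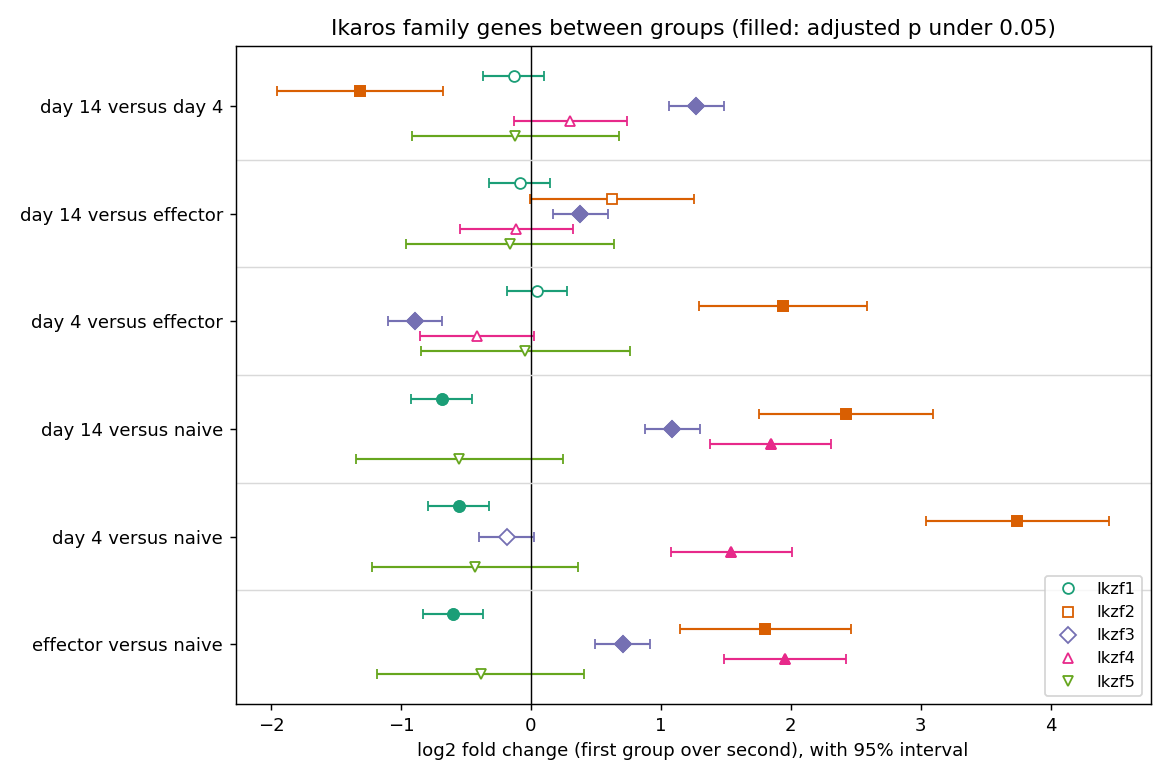
Log2 fold change (x axis, first-named group over second, with 95% interval) of the 5 genes in the 6 comparisons (y axis), with filled symbols for an adjusted p under 0.05. Between day 14 and day 4 only Ikzf2 (-1.32) and Ikzf3 (1.27) are filled, and they lie on opposite sides of 0.

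The make-up of the family was followed with CPM divided by the exonic length of each gene in kilobases (kb), a scale on which levels of different genes can be set side by side. Summed over the 5 members, the level was 216 ± 24.6 at day 14, 226 ± 8.85 at day 4, 199 ± 10.2 in effector libraries and 229 ± 6.0 in naive libraries (CPM per kb, SD, n = 3 each), and the day 14 range of 193 to 242 overlapped that of every other group. On this length the effector range of 191 to 211 lay below those of day 4 (216 to 232) and naive libraries (222 to 233). That separation depended on the length used. By longest transcript the sum of effector replicate 2 was above those of naive replicate 1 and day 4 replicate 1. Undivided by length it was above that of every naive library. The make-up of the sum differed between groups. Ikzf1 held 54.8% ± 3.98 of it at day 14, 57.7% ± 0.444 at day 4, 63.5% ± 4.51 in effector libraries and 83.5% ± 0.399 in naive libraries. Ikzf2 held 11.9% ± 0.435 at day 14, 28.3% ± 1.66 at day 4, 8.28% ± 3.07 in effector libraries and 2.08% ± 0.495 in naive libraries. It was the second most abundant member in the day 4 libraries and, on this length, the third in the libraries of the other groups. In naive libraries that rank depended on the length, since on countable bases Ikzf5 averaged 5.02 ± 1.14 and Ikzf2 4.84 ± 1.25 CPM per kb. Ikzf3 held 30.8% ± 3.07 at day 14, 12.1% ± 1.18 at day 4, 25.4% ± 1.12 in effector libraries and 13.5% ± 0.211 in naive libraries. Ikzf4 held between 0.439% and 2.96% in single libraries. Ikzf5 held 0.153% to 0.418%, a value held down by the reads left out, and 1.81% on average over the 12 libraries when only the countable bases were taken as its length.

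The ratio of Ikzf3 to Ikzf2 per kb turned over between the tumour times. It was 2.79, 2.65 and 2.32 in the day 14 libraries, 0.415, 0.370 and 0.503 in the day 4 libraries, 3.97, 2.24 and 3.67 in the effector libraries, and 8.35, 5.24 and 6.70 in the naive libraries. Ikzf2 was thus above Ikzf3 in the 3 day 4 libraries and below it in the other 9. The ratio of Ikzf2 to Ikzf1 was 0.198 to 0.239 at day 14, 0.456 to 0.518 at day 4, 0.0977 to 0.203 in effector libraries and 0.0195 to 0.0315 in naive libraries. As a description over the 12 libraries, which share groups, log2 CPM of Ikzf1 and Ikzf4 had a Pearson r of -0.94, Ikzf1 and Ikzf2 of -0.70, and Ikzf2 and Ikzf3 of 0.01.

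**Figure D3:**
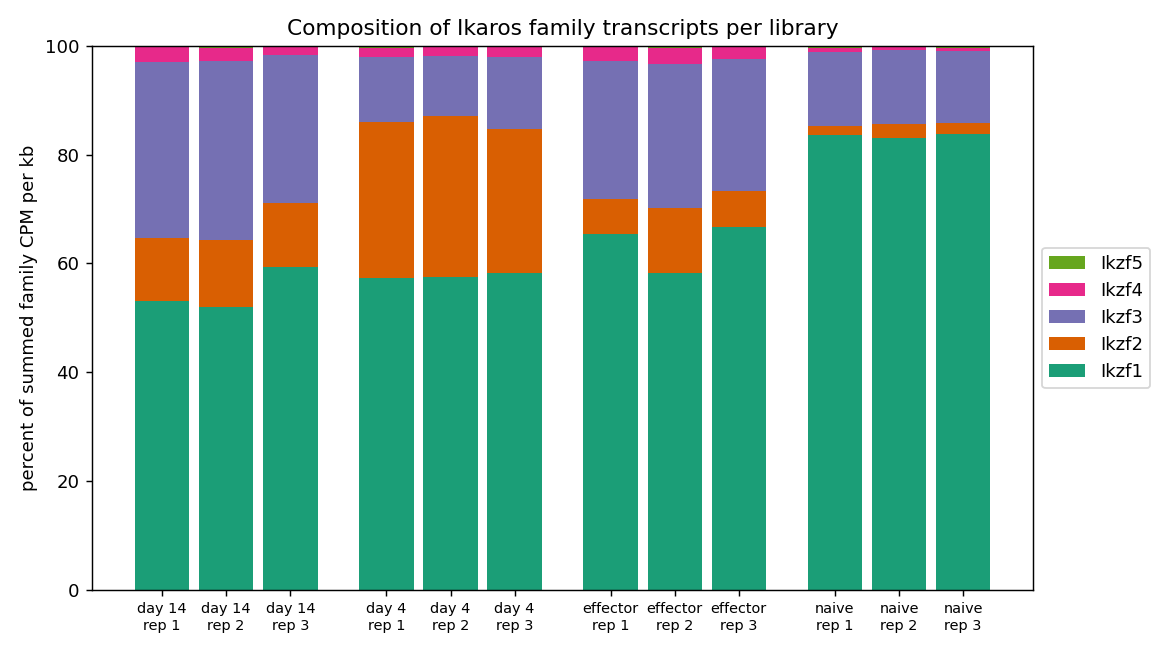
Percent of the summed Ikaros family level (CPM per kb of exon, y axis) held by each member in each library (x axis, grouped). Ikzf1 holds 83.0% to 83.8% in naive libraries, Ikzf2 holds 26.5% to 29.7% at day 4, and Ikzf3 holds 27.3% to 32.9% at day 14.

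Among 12367 tested protein-coding genes ranked by mean CPM per kb, Ikzf1 stood at the 97.7th percentile at day 14, the 98.1st at day 4, the 98.2nd in effector cells and the 99.0th in naive cells. Ikzf2 stood at the 86.4th percentile at day 14, the 95.8th at day 4, the 79.4th in effector cells and the 50.2nd in naive cells. Ikzf3 stood at the 95.7th, 87.6th, 94.3rd and 90.7th percentiles in the same order. Ikzf4 ranged from the 29.2nd percentile in naive cells to the 50.2nd in effector cells.

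Transcripts annotated inside the member genes were read next, since they share the locus. Gm29112 (chr1:69595036-69598522) and Gm28112 (chr1:69660187-69662061) are annotated as sense-intronic, on the same strand as Ikzf2 and within its introns, and Gm29114 (chr1:69513932-69547707) lies across the 3′ end of Ikzf2 on the opposite strand. All 3 had their highest mean at day 4, but none was called in effector relative to naive cells, where Ikzf2 rose. The log2 fold changes there were 0.29 for Gm28112 (edgeR adjusted p = 0.835), 0.52 for Gm29112 (edgeR adjusted p = 0.645) and 0.02 for Gm29114, on low counts. Gm28112 at day 14 did not differ from day 4 past the threshold (log2 fold change -0.76, edgeR adjusted p = 0.372, or 0.0232 when only these 2 groups were fitted). Gm29112 and Gm29114 fell at day 14 relative to day 4 (-1.82 and -1.47, edgeR adjusted p = 0.0129 and 0.0244). The Gm29112 call was lost without day 4 replicate 2 or day 14 replicate 1 or 2 (edgeR adjusted p of 0.0527 to 0.121), and the Gm29114 call without day 4 replicate 2 or 3 or replicate 1 or 2 of day 14 (edgeR adjusted p of 0.0508 to 0.143). Gm28112 averaged 10.8 CPM at day 14, 18.2 CPM at day 4, 0.801 CPM in effector libraries and 0.652 CPM in naive libraries. Gm29112 averaged 1.96, 6.95, 0.333 and 0.234 CPM in the same order. Gm29114 averaged 2.72, 7.55, 0.742 and 0.738 CPM. Relative to naive cells, Gm28112 rose by 4.80 on the log2 scale at day 4 (edgeR adjusted p = 2.19e-05) and by 4.05 at day 14 (edgeR adjusted p = 9.47e-05). Gm29112 rose by 4.86 at day 4 (edgeR adjusted p = 2.04e-06) and by 3.04 at day 14 (edgeR adjusted p = 0.000313), on a total of 9 counts in the naive libraries. Naive replicate 2 carried most of those low counts, and without it the day 4 values were 5.58 for Gm28112 and 5.86 for Gm29112, and the day 14 values 4.81 and 4.03. In these counts, reads of unspliced Ikzf2 transcripts and of the intronic transcripts on its strand cannot be told apart, and without strand information those of the antisense transcript cannot either. Within Ikzf1, the antisense transcript Gm12000 (chr11:11695133-11696439) averaged 8.89 CPM at day 14, 12.4 CPM at day 4, 7.70 CPM in effector libraries and 22.8 CPM in naive libraries. Gm12000 was lower than in naive cells in effector cells (-1.56, edgeR adjusted p = 0.000132), at day 4 (-0.88, edgeR adjusted p = 0.00274) and at day 14 (-1.35, edgeR adjusted p = 7.77e-05), which are the comparisons in which Ikzf1 fell. Gm12000 was also higher at day 4 than in effector cells (0.68, edgeR adjusted p = 0.0176), where Ikzf1 differed by 0.05 and was not called.

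**Figure D4:**
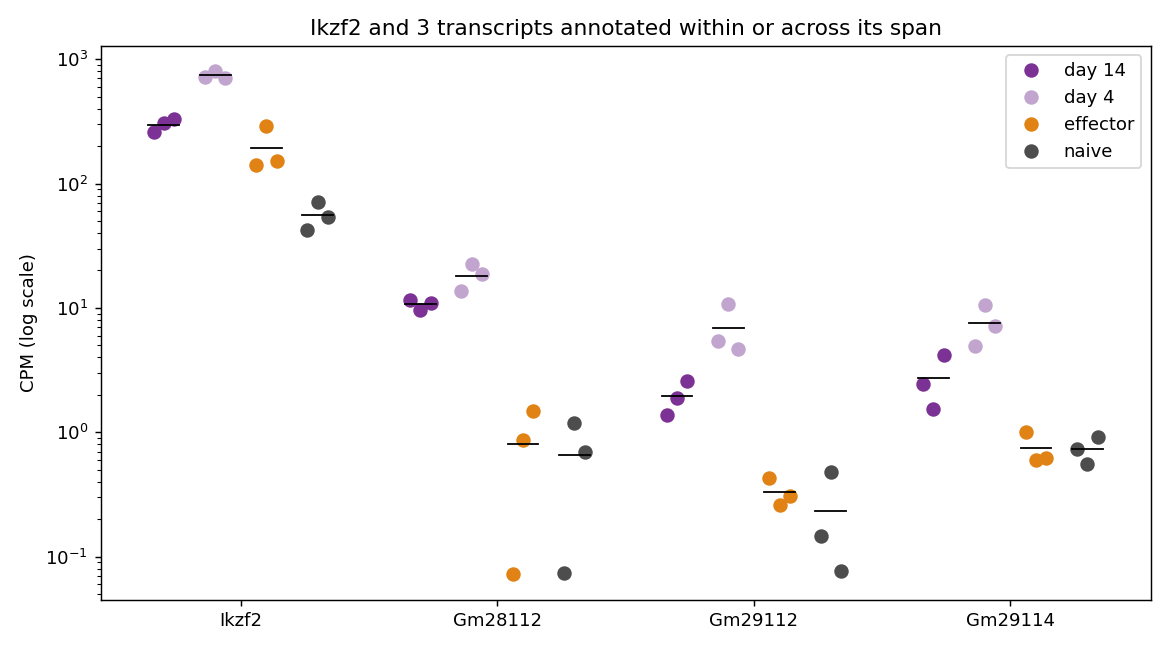
Level in CPM (y axis, log scale) of Ikzf2 and of the transcripts Gm28112, Gm29112 and Gm29114 annotated within or across its span, with a point per library and a line at the group mean. All 4 have their highest mean at day 4, at 743, 18.2, 6.95 and 7.55 CPM.

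The genes whose patterns were most like each member were ranked by Pearson r of log2 CPM over the 12 libraries among 9195 protein-coding genes. Libraries share groups, so an r of this size describes the group pattern and carries no p. For Ikzf2 the leading genes were Msh6, a DNA mismatch repair gene (r = 0.979), Paics, an enzyme of purine synthesis (0.975), Plxdc2 (0.972), Gramd1b and Ap3s1 (0.970 each). For Ikzf3 they were Tor1aip1, a protein of the inner nuclear membrane (0.978), Abr (0.966), the surface receptor Cd48 (0.960), Capn2 (0.949) and the interferon-gamma receptor chain Ifngr1 (0.947). Ikzf4 was followed by Rasa1, a Ras GTPase-activating protein (0.960), Ctla2a (0.957), Slc25a24, Dock9 (0.956 each) and Mxd4 (0.955). The nearest to Ikzf1 were Setd4 (0.934), Pus7l, Rpl12, Mllt1 (0.928 each) and Fchsd2 (0.926). Those nearest to Ikzf5 included Slc30a1 (0.934), Caml (0.811), Nme6 (0.795) and Uqcc1 (0.790), on the low counts described above.

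Ikaros proteins act with chromatin complexes, and the subunits of NuRD and related corepressors were read as a list of 17 genes, all tested. In effector relative to naive cells 2 rose and 4 fell, where 14.6% of all tested genes were higher and 10.4% lower. At day 4 relative to naive cells 8 rose and 4 fell, with a median log2 fold change of 0.25 against 0.03 over all genes, and at day 14 relative to naive cells 7 rose and 4 fell (0.20 against 0.04). Of all tested genes 33.4% were higher and 28.8% lower in the day 4 comparison, and 33.6% and 28.5% in the day 14 comparison. Relative to effector cells 8 rose and 3 fell at day 4, and 8 rose and 4 fell at day 14, where 32.7% of all tested genes were higher and 29.2% lower at day 4, and 32.6% and 28.4% at day 14. Between the tumour times, day 14 over day 4, 2 rose and 1 fell, where 7.17% of all tested genes were higher and 4.91% lower. Chd3, a nucleosome-remodelling ATPase of NuRD, averaged 196 ± 38.8 CPM at day 14, 237 ± 15.3 CPM at day 4, 1294 ± 25.5 CPM in effector libraries and 692 ± 88.8 CPM in naive libraries (SD, n = 3 each). It fell 6.60-fold at day 14 relative to effector cells (log2 fold change -2.72, edgeR adjusted p = 6.58e-11) and 2.92-fold at day 4 relative to naive cells (-1.55, edgeR adjusted p = 2.04e-08), and it rose in effector relative to naive cells (0.90, edgeR adjusted p = 4.96e-05). The other ATPase, Chd4, averaged 574 ± 22.7 CPM at day 14 and 818 ± 118 CPM at day 4 and fell between them (-0.51, edgeR adjusted p = 0.00562). Hdac1, a histone deacetylase, averaged 392 ± 15.8 CPM at day 14, 451 ± 22.3 CPM at day 4, 207 ± 8.56 CPM in effector libraries and 199 ± 9.59 CPM in naive libraries. Hdac1 rose 2.27-fold at day 4 (edgeR adjusted p = 1.80e-09) and 1.97-fold at day 14 relative to naive cells (edgeR adjusted p = 1.68e-08). The histone-binding subunit Rbbp7 rose 2.61-fold at day 4 and 2.36-fold at day 14 relative to effector cells (edgeR adjusted p = 1.37e-09 and 5.32e-09). Mta3, a scaffold subunit, averaged 183 ± 12.3 CPM at day 14 and 113 ± 7.04 CPM at day 4, while effector libraries averaged 303 ± 27.0 CPM and naive libraries 275 ± 5.23 CPM. Mta3 rose at day 14 relative to day 4 (0.70, edgeR adjusted p = 6.99e-05), as did the methyl-DNA binding subunit Mbd2 (0.47, edgeR adjusted p = 0.00372). Hdac2 fell in effector relative to naive cells (-0.64, edgeR adjusted p = 0.000703). Ctbp1, a corepressor that binds Ikaros, fell there as well (-0.43, edgeR adjusted p = 0.0135), but not without naive replicate 2 (edgeR adjusted p = 0.0642). Ctbp2, singled out after its values were seen, had the largest rises of the list at both tumour times relative to naive cells (log2 fold change 1.97 at day 4 and 1.61 at day 14), at a low level, with 1.94 CPM at day 14, 2.50 CPM at day 4, 0.662 CPM in effector libraries and 0.626 CPM in naive libraries.

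Of 7 subunits of the BAF (SWI/SNF) remodelling complex, all tested, 5 rose and 1 fell at day 4 and 4 rose and 1 fell at day 14 relative to naive cells, against 33.4% of all tested genes higher and 28.8% lower at day 4, and 33.6% and 28.5% at day 14. Relative to effector cells 4 rose and 1 fell at either time, against 32.7% higher and 29.2% lower at day 4, and 32.6% and 28.4% at day 14. In effector relative to naive cells, where 14.6% of all tested genes were higher and 10.4% lower, 0 rose and 1 fell by edgeR, with 1 higher at an unadjusted p under 0.05 and 0 higher by DESeq2. Day 14 over day 4, where 7.17% of all tested genes were higher and 4.91% lower, gave 1 rise and 0 falls by edgeR, with 0 lower at an unadjusted p under 0.05 or by DESeq2. The core subunit Smarcc1 rose 2.08-fold at day 4 and 1.88-fold at day 14 relative to naive cells (edgeR adjusted p = 6.39e-08 and 3.69e-07). Smarcb1 fell in effector relative to naive cells (-0.61, edgeR adjusted p = 0.000258), and it rose 2.25-fold at day 4 and 1.97-fold at day 14 relative to effector cells (edgeR adjusted p = 3.18e-08 and 2.84e-07). The ATPase Smarca4 rose at day 14 relative to naive cells (0.44, edgeR adjusted p = 0.000876). Arid1a, the DNA-binding subunit of one form of the complex, was the subunit that fell, by 0.82 at day 4 and by 0.55 at day 14 on the log2 scale relative to naive cells (edgeR adjusted p = 1.00e-07 and 9.13e-06). Arid1a was also the subunit that rose at day 14 relative to day 4 (0.27, edgeR adjusted p = 0.0255), a call that was lost without naive replicate 2, any day 4 library, or day 14 replicate 2 or 3 (edgeR adjusted p of 0.0509 to 0.126), and with the compared groups fitted alone (edgeR adjusted p = 0.0502). Smarcd1 rose at day 14 relative to effector cells (0.43, edgeR adjusted p = 0.0383), but not without effector replicate 1 or day 14 replicate 3 (edgeR adjusted p = 0.122 and 0.118), nor with no filter, the compared groups alone or the summed strand columns (edgeR adjusted p = 0.0521, 0.0525 and 0.0540).

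Casein kinase 2 phosphorylates Ikaros and protein phosphatase 1 reverses it. The list of their genes also held the kinases Syk and Btk, and 7 of its 8 genes were tested, all but Btk. Syk averaged 0.472 CPM at day 14, 1.49 CPM at day 4, 0.342 CPM in effector libraries and 1.94 CPM in naive libraries. It was too low to be named by the rule used here, but the counts below include it. In effector relative to naive cells 3 rose and 1 fell, at day 4 relative to naive cells 5 rose and 1 fell, and at day 14 relative to naive cells 5 rose and 2 fell. Over all tested genes, 14.6% were higher and 10.4% lower in effector cells, 33.4% and 28.8% at day 4, and 33.6% and 28.5% at day 14, each relative to naive cells. Relative to effector cells 4 rose and 1 fell at day 4 and likewise at day 14. Of all tested genes 32.7% were higher and 29.2% lower at day 4 in that comparison, and 32.6% and 28.4% at day 14. For day 14 over day 4, where 7.17% of all tested genes were higher and 4.91% lower, the count was 1 risen and 0 fallen by edgeR, with 1 lower at an unadjusted p under 0.05 and 0 lower by DESeq2. Csnk2b, the regulatory subunit of casein kinase 2, rose 2.14-fold at day 4 and 2.12-fold at day 14 relative to naive cells (edgeR adjusted p = 3.75e-07 and 4.54e-07). The catalytic subunit Csnk2a1 fell at day 4 relative to effector cells (-0.36, edgeR adjusted p = 0.00235), while Csnk2a2 rose in effector relative to naive cells (0.41, edgeR adjusted p = 0.00313). The phosphatase catalytic subunit Ppp1cc rose 1.75-fold at day 14 relative to naive cells (edgeR adjusted p = 2.21e-06), and Ppp1cb rose 1.57-fold at day 4 relative to effector cells (edgeR adjusted p = 3.97e-05). Ppp1cc was the gene that rose at day 14 relative to day 4 (0.40, edgeR adjusted p = 0.0105), a call lost without day 4 replicate 1 or 2 or day 14 replicate 2 (edgeR adjusted p = 0.0522, 0.0734 and 0.0502). In effector relative to naive cells Csnk2b rose (0.41, edgeR adjusted p = 0.0143), but not without naive replicate 1 or 2 or effector replicate 2 (edgeR adjusted p = 0.0750, 0.0530 and 0.0700), nor with library totals (0.27, edgeR adjusted p = 0.0832) or the compared groups alone (edgeR adjusted p = 0.0604). Ppp1ca rose there too (0.28, edgeR adjusted p = 0.0430), a call lost without any one of the naive or effector libraries, day 4 replicate 2 or 3, or replicate 1 or 2 of day 14 (edgeR adjusted p of 0.0580 to 0.173). The Ppp1ca call was also lost with library totals (0.14, edgeR adjusted p = 0.271), RLE size factors (edgeR adjusted p = 0.0570), DESeq2 (adjusted p = 0.0509), the compared groups alone (edgeR adjusted p = 0.0613) and the summed strand columns (edgeR adjusted p = 0.0756).

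The cereblon ubiquitin ligase degrades Ikaros and Aiolos in human cells treated with thalidomide analogues, and all 5 of its genes were tested. The shares of all tested genes to set beside its counts are those given above for the kinases and phosphatases. Crbn, the substrate receptor, averaged 98.5 ± 14.2 CPM at day 14, 78.6 ± 4.56 CPM at day 4, 68.9 ± 4.31 CPM in effector libraries and 63.8 ± 4.40 CPM in naive libraries. Crbn rose at day 14 relative to naive cells (0.63, edgeR adjusted p = 0.000113) and relative to effector cells (0.52, edgeR adjusted p = 0.000671). The adaptor Ddb1 rose 1.75-fold at day 4 relative to naive cells (edgeR adjusted p = 2.54e-07), and Cul4b, a scaffold, fell at day 14 relative to effector cells (-0.47, edgeR adjusted p = 0.000238) and to day 4 (-0.36, edgeR adjusted p = 0.0114). Ddb1 also rose at day 14 relative to naive cells (0.53, edgeR adjusted p = 2.82e-05). Relative to effector cells it rose at day 4 (0.61, edgeR adjusted p = 5.81e-06) and at day 14 (0.33, edgeR adjusted p = 0.00205). A further 3 calls depended on single libraries and on the processing. Crbn rose at day 4 relative to naive cells (0.30, edgeR adjusted p = 0.0249), but not without naive replicate 3 or day 4 replicate 1 (edgeR adjusted p = 0.0714 and 0.0581) and not with library totals as scaling (edgeR adjusted p = 0.0773). Cul4b rose in effector relative to naive cells (0.28, edgeR adjusted p = 0.0269), but not without naive replicate 2, effector replicate 1 or 2, day 4 replicate 2 or 3, or replicate 1 or 2 of day 14 (edgeR adjusted p of 0.0523 to 0.118). That call of Cul4b was also lost with library totals (0.14, edgeR adjusted p = 0.240), with no filter (edgeR adjusted p = 0.0952) and with the compared groups fitted alone (edgeR adjusted p = 0.0652). Ddb1 fell at day 14 relative to day 4 (-0.28, edgeR adjusted p = 0.0288), but not without day 4 replicate 1 or 2 or any one of the day 14 libraries (edgeR adjusted p of 0.0574 to 0.106), nor with the compared groups fitted alone (edgeR adjusted p = 0.0560). Relative to naive cells 1 ligase gene rose in effector cells, 2 rose at day 4 and 2 rose at day 14, and 0 fell in each by edgeR; of these, 1 was lower in effector cells at an unadjusted p under 0.05 and 1 by DESeq2, and 0 were lower at either tumour time by either measure. Relative to effector cells 1 rose and 0 fell at day 4, with 0 lower at an unadjusted p under 0.05 or by DESeq2, and 2 rose and 2 fell at day 14. In day 14 over day 4, 0 rose and 2 fell by edgeR, with 1 higher at an unadjusted p under 0.05 and 0 higher by DESeq2.

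**Figure D5:**
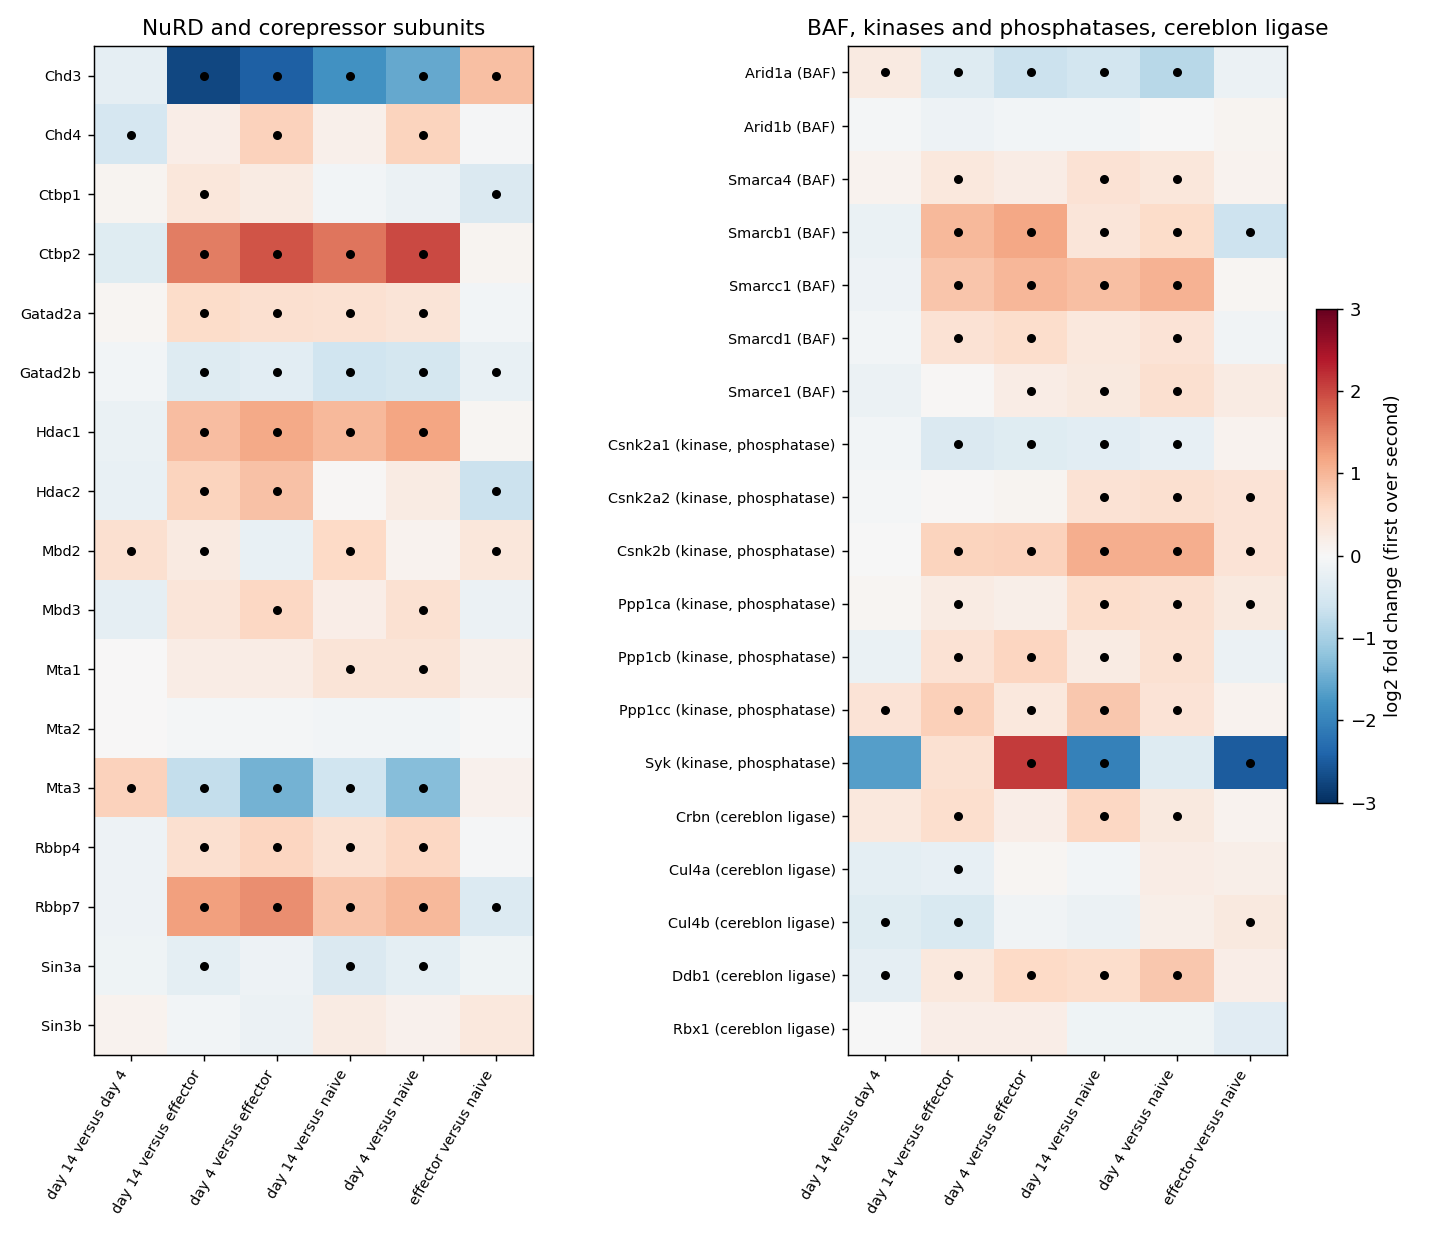
Log2 fold change (colour, first-named group over second) of the tested genes of NuRD and corepressor complexes (left) and of BAF, of kinases and phosphatases of Ikaros and of the cereblon ligase (right), by comparison (columns), with a dot for an adjusted p under 0.05. Chd3 falls in the 4 comparisons of a tumour group with effector or naive cells, by up to 2.72 on the log2 scale, and Hdac1 rises in the same 4.

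Of 20 genes reported as controlled by Ikaros family proteins in lymphocytes, 16 were tested. Vpreb1, Ptcra and Notch3 did not pass the filter and Igll1 had no count. In effector relative to naive cells 7 rose and 2 fell, at day 4 relative to naive cells 7 rose and 6 fell, and at day 14 relative to naive cells 6 rose and 6 fell. The shares of all tested genes were 14.6% higher and 10.4% lower, 33.4% and 28.8%, and 33.6% and 28.5% in these comparisons. Relative to effector cells 7 rose and 8 fell at day 4, and 5 rose and 6 fell at day 14, beside 32.7% of all tested genes higher and 29.2% lower at day 4, and 32.6% and 28.4% at day 14. From day 14 against day 4 came 4 rises and 2 falls, beside 7.17% of all tested genes higher and 4.91% lower. The list holds genes that these proteins repress and genes that they activate, so its counts have no single direction. Ifng, the cytokine interferon gamma, averaged 97.5 ± 23.9 CPM at day 14, 47.8 ± 4.06 CPM at day 4, 0.244 ± 0.212 CPM in effector libraries and 0.132 ± 0.166 CPM in naive libraries, the last on 5 counts in all. Ifng was higher in both tumour groups than in naive cells (edgeR adjusted p = 1.43e-09 at day 14 and 4.82e-09 at day 4). Tbx21, the factor T-bet, averaged 55.3 ± 6.63 CPM at day 14, 33.0 ± 6.87 CPM at day 4, 17.6 ± 6.67 CPM in effector libraries and 3.13 ± 1.31 CPM in naive libraries. It rose in each of the 3 groups relative to naive cells (edgeR adjusted p = 4.53e-07, 2.42e-06 and 0.000223 in that order). Dtx1, a regulator of Notch signalling, averaged 0.501 ± 0.461 CPM at day 14, 1.73 ± 1.68 CPM at day 4, 5.71 ± 1.53 CPM in effector libraries and 129 ± 7.61 CPM in naive libraries, and fell in each relative to naive cells (edgeR adjusted p = 6.82e-06, 1.44e-05 and 0.000324). Il7r, the receptor for interleukin 7, fell 24.5-fold at day 14 and 14.5-fold at day 4 relative to effector cells (edgeR adjusted p = 2.29e-05 and 5.44e-05). Cdkn1b, a cell cycle inhibitor, rose 2.31-fold in effector relative to naive cells (edgeR adjusted p = 2.29e-06) and fell 4.26-fold at day 4 relative to effector cells (edgeR adjusted p = 4.07e-10). Bcl6, a repressor, averaged 41.4 ± 11.6 CPM at day 14 and 140 ± 17.1 CPM at day 4 and fell between them (-1.76, edgeR adjusted p = 4.63e-05). Ifng rose at day 14 relative to day 4 (1.03, edgeR adjusted p = 0.0135), but not without day 4 replicate 1 or 2 or replicate 1 or 2 of day 14 (edgeR adjusted p = 0.0650, 0.0675, 0.0690 and 0.0517). Myc fell there (-0.70, edgeR adjusted p = 0.0379), but not without naive replicate 3, day 4 replicate 2 or 3, or replicate 1 or 2 of day 14 (edgeR adjusted p of 0.0511 to 0.133).

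Other zinc finger and lineage factors of T cells were read for context, and 9 of 10 were tested, all but Zbtb16. In effector relative to naive cells 2 rose and 1 fell, at day 4 relative to naive cells 5 rose and 4 fell, and at day 14 relative to naive cells 4 rose and 4 fell. All tested genes had 14.6% higher and 10.4% lower, 33.4% and 28.8%, and 33.6% and 28.5% in the same comparisons. Relative to effector cells 1 rose and 4 fell at day 4, and 2 rose and 5 fell at day 14, with 32.7% of all tested genes higher and 29.2% lower at day 4, and 32.6% and 28.4% at day 14. Set against day 4, day 14 had 2 higher and 3 lower, with 7.17% of all tested genes higher and 4.91% lower. Prdm1, which encodes the repressor Blimp-1, averaged 207 ± 9.82 CPM at day 14, 19.9 ± 15.9 CPM at day 4, 8.23 ± 3.04 CPM in effector libraries and 1.65 ± 1.45 CPM in naive libraries. It rose 10.3-fold at day 14 relative to day 4 (log2 fold change 3.37, SE 0.59, edgeR adjusted p = 0.00688). Without day 4 replicate 3 the log2 fold change was 4.21. Satb1, a chromatin organiser, averaged 72.4 ± 22.3 CPM at day 14, 388 ± 126 CPM at day 4, 1666 ± 145 CPM in effector libraries and 1409 ± 37.2 CPM in naive libraries. Satb1 fell 5.36-fold (edgeR adjusted p = 0.000307) and Bach2, a repressor of effector genes, fell 5.09-fold (edgeR adjusted p = 3.58e-05) at day 14 relative to day 4. Zeb2 averaged 88.7 ± 35.6 CPM at day 14, 106 ± 8.43 CPM at day 4, 2.29 ± 0.701 CPM in effector libraries and 1.22 ± 0.209 CPM in naive libraries, and rose at both tumour times relative to naive cells (edgeR adjusted p = 5.41e-09 and 3.61e-09). Bcl11b, a factor of T cell identity, fell 3.50-fold at day 4 relative to effector cells (edgeR adjusted p = 5.01e-10), and Gfi1, a repressor, rose 3.41-fold in effector relative to naive cells (edgeR adjusted p = 9.07e-07). Zeb1 fell in effector relative to naive cells (-0.30, edgeR adjusted p = 0.0262), but not without naive replicate 1 or 2 or effector replicate 2 (edgeR adjusted p = 0.0875, 0.0889 and 0.0835).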

How the data were processed

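Gene expression was measured by RNA-seq in 12 libraries of OT-I T cells, 3 per group. Cells were sorted into lysis buffer and their RNA was amplified before library preparation, per the labels' protocols. Reads were trimmed with fastp 0.19.6 and aligned with STAR 2.6.1b to GRCm38, per the submitters' processing notes, while the counting options were not given in the sources used here, nor was the annotation. The deposited values are raw counts per gene, unstranded and by strand; the by-strand columns held nearly equal shares (49.8% to 49.9% of the strand counts on the first), so the unstranded column was used. Of 55401 identifiers, 55141 matched GENCODE M21 without their version. The rows for reads in no gene, in several genes, at several places or unmapped stayed out of library sizes, at 20.7% to 30.2%, 3.22% to 3.81%, 5.90% to 7.29% and 4.90% to 5.53% of reads.

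Counts were tested with the quasi-likelihood test of edgeR 4.0.16 (R 4.3.3), with TMM scaling and a minimum count of 10 in its expression filter, in 1 fit of all 12 libraries. That fit had 8 residual degrees of freedom, and the multiplier of the SE in the 95% intervals came from these alone. The SEs and the p-values both drew on the spread of the other genes. The p-values also gained degrees of freedom from those genes, so an interval can include 0 at an unadjusted p under 0.05. Benjamini-Hochberg adjustment of p-values ran over 16426 genes, and those under 0.05 were called. With 11937053 to 17094006 counts per library, counts of PCR-amplified reads without molecular identifiers are not independent molecules. Levels per kb used the exonic length in GENCODE M21. Finger sequences came from the GENCODE M21 transcript with the longest coding part. The fitting code was tested on simulated data.

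Members and lists were chosen with earlier results of these data known. The genes named from each list were up to 3 called genes per comparison by size of change, with a mean log2 CPM of at least 2; the nearest patterns were the 5 genes with the highest r. One of those genes and the sequences of 2 fingers are not reported here. Alternatives were RLE size factors, library totals, DESeq2 1.42.0, no filter, the compared groups alone, the sum of the strand columns, a replicate block, each library left out, and other gene lengths. The countable length was chosen after seeing the data.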

Additional observations from a re-analysis of the deposited data

Results flagged for a closer look

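The effects of Ikzf2 and Ikzf3 relative to naive cells differed between the tumour times by the test of day 14 against day 4 itself. For Ikzf2 the difference was -1.32 on the log2 scale (edgeR adjusted p = 0.0132), with 3 of 3 day 14 libraries below all day 4 libraries. That call was lost without day 14 replicate 1 (edgeR adjusted p = 0.0575). For Ikzf3 it was 1.27 (edgeR adjusted p = 4.57e-07), with 3 of 3 day 14 libraries above all day 4 libraries. Melanoma markers summed to 414 to 1608 CPM at day 14 and 666 to 1003 CPM at day 4, and their part in either difference was not tested.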

How the results depend on the processing

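Of 30 results for members, 16 passed the threshold, and 15 of these kept direction and call under all 19 alternatives; Ikzf2 at day 14 relative to day 4 was the exception, at -1.41 to -1.24 with single libraries left out. Of the 14 that did not pass, 9 stayed on the same side throughout. Ikzf3 at day 4 relative to naive cells passed with library totals (-0.25, edgeR adjusted p = 0.0246). Ikzf2 at day 14 relative to effector cells passed with DESeq2 (0.67). Ikzf5 at day 4 relative to effector cells turned to 0.0093 with RLE factors, 0.040 with library totals, 0.0099 with DESeq2 and 0.0027 with no filter. With the summed strand columns Ikzf5 was 0.054 at day 14 relative to effector cells and 0.081 relative to day 4. With single libraries left out, the log2 fold changes at day 4 relative to naive cells were -0.26 to -0.12 for Ikzf3. At day 4 relative to effector cells they were -0.49 to -0.25 for Ikzf4 and -0.20 to 0.22 for Ikzf5. At day 14 relative to effector cells they were -0.25 to 0.048 for Ikzf1, 0.48 to 1.03 for Ikzf2, -0.20 to 0.053 for Ikzf4 and -0.36 to 0.10 for Ikzf5. Between day 14 and day 4 they were -0.31 to -0.051 for Ikzf1 and -0.37 to 0.071 for Ikzf5. Genes called between day 14 and day 4 numbered 1283 to 2206, against 1984 with all libraries, the lowest without day 14 replicate 2.

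Shares of the family level moved with the length used. Undivided by length, at day 14, day 4, effector and naive in turn, Ikzf1 held 42.9%, 42.7%, 52.3% and 76.5%, Ikzf2 18.7%, 42.2%, 13.6% and 3.82%, and Ikzf3 36.4%, 13.6%, 31.6% and 18.8%. By longest transcript Ikzf1 held 44.6%, 51.5%, 53.4% and 76.0%, Ikzf3 42.5%, 18.3%, 36.3% and 20.9%, and Ikzf2 10.8% at day 14. By countable length Ikzf1 held 56.7% at day 4 and 81.9% in naive libraries, Ikzf3 13.3% in naive libraries and Ikzf5 1.81% over all libraries. The cause of the other changes was not tested.

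Replicate numbers did not pair the libraries: same-number deviations correlated at -0.0884 to 0.102 over 18 pairs, and 4 of 12 libraries correlated best with their own number. With the replicate block, Ikzf2 at day 14 relative to effector cells was 0.68 and passed (edgeR adjusted p = 0.00644), no other member's call changed, and 1931 genes were called between day 14 and day 4. Ikzf5, with 35 to 72 counts per library, allowed only wide intervals.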
